A study of Mus musculus with 21 samples.

Results

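The genes described here are 10 of the 52550 genes in the count table: the 6 P2X receptor genes P2rx2, P2rx3, P2rx4, P2rx5, P2rx6 and P2rx7, and the 4 acid-sensing ion channel genes Asic1, Asic2, Asic3 and Asic4. They were chosen by name, as listed members of the 2 families, and each was matched through its Ensembl identifier. The remaining gene of each family, P2rx1 and Asic5, is given with the related genes further on. The libraries come from C57BL/6 mice and form 7 groups with 3 replicates each, 21 libraries in all. Spiral ganglion neurons (SGNs), the neurons that carry sound information from the cochlea to the brainstem, were picked on embryonic day E15.5 and on postnatal days P1, P8, P14 or P30 from ShhCre/+; Rosa26-CAG-loxp-stop-loxp-tdTomato/+ mice. Here Cre is driven by Sonic Hedgehog, and tdTomato stays on in cells that once expressed it. Hair cells (HCs), the sensory cells that SGNs contact, were taken at P12 from Atoh1-CreER+ mice with the same reporter after tamoxifen at P0 and P1, and they pool cochlear and vestibular HCs. Glial cells were taken at P8 from vGlut3-iCreER/+ mice with the same reporter after tamoxifen at P2 and P3, from dissected SGN tissue so that labelled inner HCs were left out. Thus every group carried the tdTomato reporter, each cell type had its own Cre driver, and the cell types were not sampled at a common set of ages. Libraries were made from 69 to 195 SGNs, 86 to 125 glial cells or about 1200 HCs. The labels do not say whether replicates were separate animals, so p-values measure the spread between these libraries only.

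P2X receptors are cation channels that extracellular ATP opens, and each channel is a trimer of the same or different subunits. Acid-sensing ion channels (ASICs) are trimeric too, and protons open them. In the cochlea ATP is released by supporting cells, most actively before hearing begins, and drives bursts of firing in HCs and SGNs. P2X2 and P2X3 subunits join in one channel in many sensory neurons, P2X7 is best known from glia and immune cells, and ASIC1 and ASIC3 carry much of the proton-gated current of peripheral sensory neurons.

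Libraries held from 10368240 to 37287489 counts on genes. Levels are given as RPKM, that is CPM (counts scaled to library size) per kilobase of the deposited gene length, with library sizes adjusted by TMM (trimmed mean of M values), so genes can be compared with each other. A count of 0 allows up to 3 counts, which is 0.0805 to 0.289 CPM. These limits cover counting error only, and they take counts as independent. The summed RPKM of 5 SGN markers (Slc17a6, Slc17a7, Lypd1, Tubb3, Nefl) was 551 to 2298 in SGN libraries, 44.9 to 54.6 in HC libraries and 16.9 to 156.6 in glial libraries, so the label of the SGNs held. The sum of 6 HC markers (808.5 to 847 in HCs, at most 104 elsewhere) held for the HCs. The sum of 4 glial markers was 296 to 475 in glia and at most 268 elsewhere. SGNs reached 50.5% of the glial mean at P14 and 55.8% at P30, so this list set glia apart from older SGNs only narrowly. Samples had to pass a PCR check that included Sox10 and Myo6 before sequencing. They also had to pass a marker check of the sequenced data, with Slc17a6, Slc17a7, Lypd1, Myo6, Sox10 and Foxd3 among the genes. These libraries were thus selected partly by the same markers, and the sums are not an independent test of the labels. Among the 3 glial libraries, replicate 1 had an SGN-marker sum of 156.6, against 31.3 and 16.9 in the others. The HC libraries had a sum of 203 to 210 over 4 supporting-cell genes (Gjb2, Otog, Otoa, Tecta), higher than in any other library. In such bulk samples, fewer cells of a type and less RNA per cell cannot be told apart.

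The 10 genes lie on 6 autosomes of GRCm38 (the authors' mm10), by the GENCODE M21 annotation. P2rx7 (chr5:122643911-122691432) and P2rx4 (chr5:122707544-122729738) are on the plus strand of chromosome 5, with Asic3 (chr5:24413392-24417835, plus strand) and P2rx2 (chr5:110339812-110343212, minus strand) elsewhere on it. P2rx3 is at chr2:84998583-85037462 (minus), P2rx5 at chr11:73160421-73172685 (plus) and P2rx6 at chr16:17561885-17577800 (plus). Asic1 is at chr15:99670368-99701130 (plus), Asic2 at chr11:80880169-81968457 (minus) and Asic4 at chr1:75450436-75474343 (plus). Whether the authors counted reads by strand is not given in the sources used here. Exons of P2rx6 share 554 bases, 13.9% of its exon length, with Slc7a4 on the opposite strand, those of Asic4 share 493 bases (18.1%) with Gm37264, and those of P2rx3 share 51 bases (1.83%) with Ssrp1. Reads from these stretches cannot be assigned without strand. Slc7a4 had 0.486 to 6.23 RPKM in SGN libraries, 7.38 to 10.7 in HCs and 0 to 1.62 in glia.

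The members share few long identical stretches. Over 45 pairs of members, the longest identical run in the annotated transcripts (49 transcripts) had a median of 13 bases and reached 25 bases in 2 pairs only. The run of P2rx2 and P2rx3, in the coding sequence of both genes, is shown in the transcript's direction, as a stretch where a short read could fit either gene.
P2rx2 and P2rx3: ggctacaacttcaggtttgccaaata

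Of the members called by the F-test across SGN ages further on, 3 have a promoter in RefSeq's table (GRCm38.p6), and the bases before their first annotated exon are shown because their RNA moved with age. Capitals mark matches on either strand to an E-box (CAGCTG or CAGATG), a SOX motif (ACAAAG or ACAATG) or a TATA motif (TATAAA), which do not overlap each other.
Asic3, chr5:24413201-24413391, plus strand: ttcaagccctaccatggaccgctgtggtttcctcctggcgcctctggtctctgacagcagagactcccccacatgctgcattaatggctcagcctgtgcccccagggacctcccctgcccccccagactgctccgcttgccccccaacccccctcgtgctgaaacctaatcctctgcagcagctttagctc
P2rx6, chr16:17561635-17561884, plus strand: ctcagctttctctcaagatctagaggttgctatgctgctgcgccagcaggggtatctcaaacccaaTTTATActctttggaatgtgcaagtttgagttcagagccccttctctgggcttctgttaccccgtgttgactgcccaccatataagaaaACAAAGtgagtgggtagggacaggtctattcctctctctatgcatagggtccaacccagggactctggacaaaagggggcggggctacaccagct
P2rx7, chr5:122643677-122643910, plus strand: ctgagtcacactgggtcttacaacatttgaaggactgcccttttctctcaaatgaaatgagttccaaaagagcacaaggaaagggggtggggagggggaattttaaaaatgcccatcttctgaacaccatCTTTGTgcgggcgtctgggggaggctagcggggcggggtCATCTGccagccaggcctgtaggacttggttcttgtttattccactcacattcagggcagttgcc
The P2rx6 stretch of 250 bases holds 1 SOX and 1 TATA match, the P2rx7 stretch of 234 bases holds 1 E-box and 1 SOX match, and the Asic3 stretch of 191 bases holds none. Over 32851 promoter windows trimmed to 250 bases, an E-box stood in 25.5%, a SOX motif in 25.2% and a TATA motif in 12.4%. Trimmed to 234 bases the shares were 23.9%, 24.2% and 11.9%, and trimmed to 191 bases they were 20.1%, 20.3% and 8.8%. These matches are letters in a window and not shown sites of binding.

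**Figure D1:**
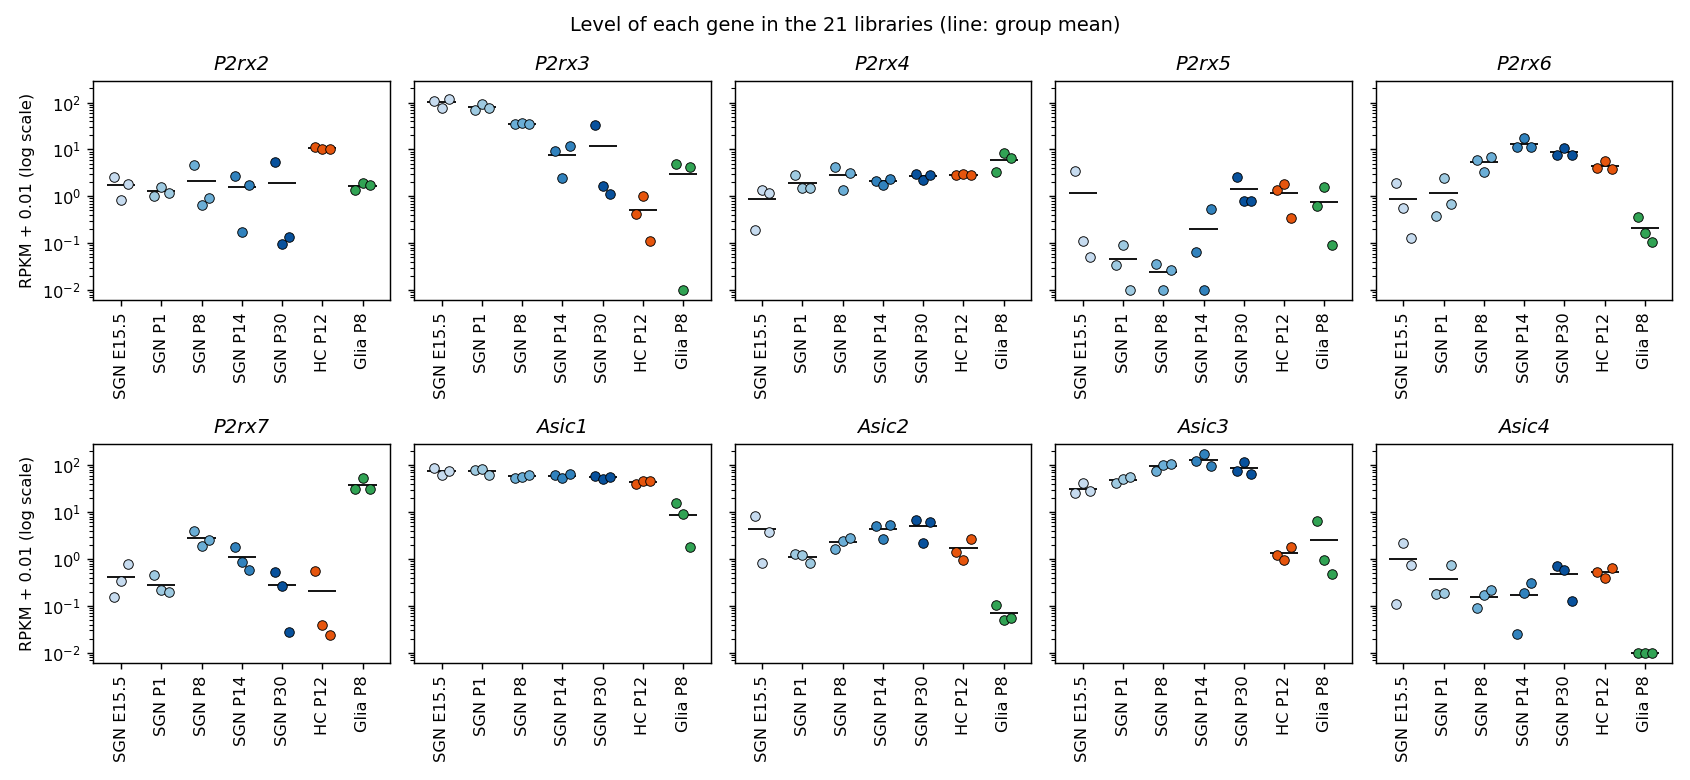
RPKM + 0.01 on a log scale (y axis) of each of the 10 genes in the 21 libraries, by group (x axis), with a line at each group mean. P2rx3 was 76.5 to 120.4 at E15.5 and 1.12 to 32.7 at P30, P2rx7 was 30.5 to 53.9 in glia and at most 3.88 elsewhere, and Asic4 had 0 counts in all 3 glial libraries.

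In SGNs the most abundant members were P2rx3, Asic3 and Asic1, in HCs Asic1 and P2rx2, and in glia P2rx7. P2rx3 made up 95.3% ± 2.15 (SD, n = 3) of the summed P2rx RPKM at E15.5 and 94.5% ± 1.01 at P1, then 73.4% ± 9.35 at P8, 28.7% ± 15.8 at P14 and 27.6% ± 30.7 at P30. P2rx6 was 0.822% ± 0.801 of that sum at E15.5, 11.2% ± 3.51 at P8 and 52.8% ± 21.1 at P14. The summed P2rx RPKM was 106.3 ± 23.6 at E15.5 and 26.0 ± 2.93 at P14. In HCs P2rx2 held the first place with 53.9% ± 6.41, and in glia P2rx7 with 75.9% ± 5.53. Among the Asic genes, Asic1 and Asic3 together held nearly the whole sum in every group. The share of Asic3 was 29.0% ± 9.38 at E15.5, 60.6% ± 2.88 at P8 and 57.8% ± 8.82 at P30, beside 2.69% ± 0.734 in HCs. The deposited length of Asic1 is 3763 bases, while its exons in GENCODE M21 cover 5740. With the longer value each Asic1 level would be 65.6% of the one given here, for example 48.4 in place of 73.8 at E15.5 and 38.0 in place of 58.0 at P8, and Asic1 would be above Asic3 at E15.5 and below it at P8 with either length. At P1 the order depends on the length, since Asic1 would be 48.8 in place of 74.4, beside 49.4 for Asic3.

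**Figure D2:**
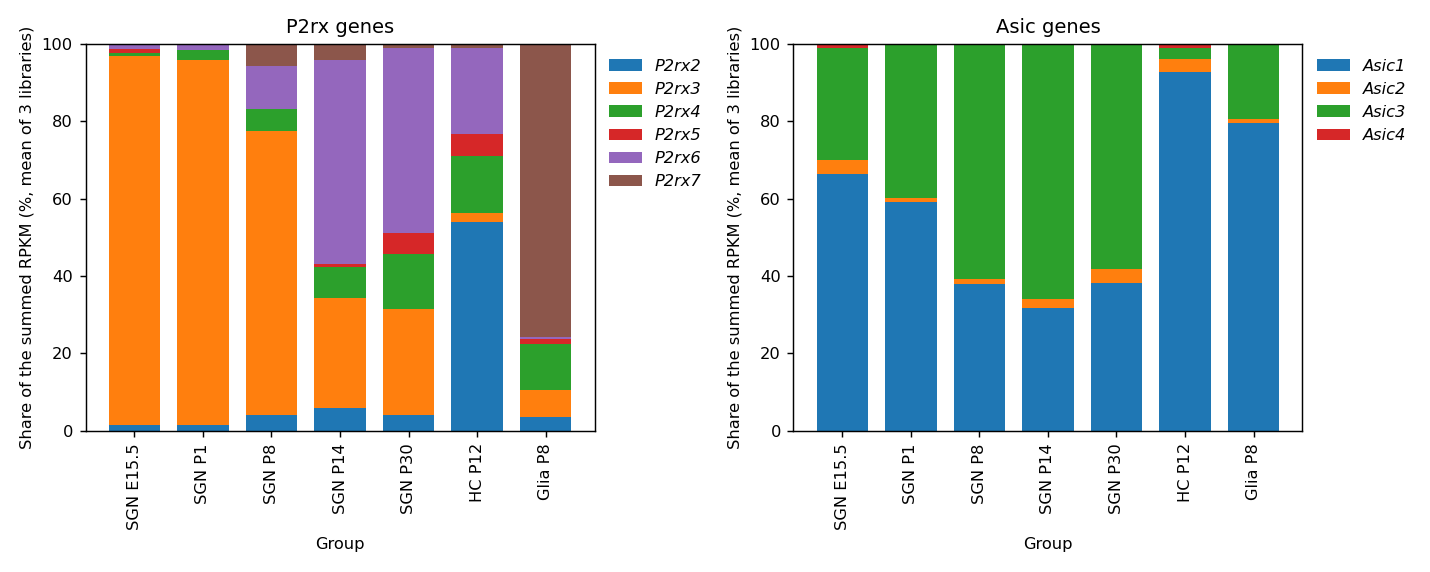
Mean share (%) over 3 libraries of each gene in the summed RPKM of its family (y axis), by group (x axis), P2rx genes left and Asic genes right. P2rx3 fills 95.3% of the P2rx bar at E15.5 and 28.7% at P14, where P2rx6 fills 52.8%; in HCs P2rx2 fills 53.9% and in glia P2rx7 fills 75.9%.

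The first question was how these genes change as SGNs mature. A gene was called between ages when limma-voom gave an adjusted p (Benjamini-Hochberg over all 15113 genes tested) under 0.05 and a change over 2-fold. Of the 10 members 9 passed the filter of more than 1 CPM in all replicates of some age, and Asic4 did not. Between E15.5 and P30 limma-voom called 4 of the 9 (3 rose, 1 fell), where 34.6% of all genes were called (18.4% rose, 16.2% fell). The members' median log2 change was 0.78, beside -0.01 over all genes. Across any of the 5 ages, a moderated F-test called P2rx3, P2rx5, P2rx6, P2rx7 and Asic3, 5 of 9, where 37.8% of all genes were called. With 9 genes tested, both shares are near the background.

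Step by step the calls were few. From E15.5 to P1 limma-voom called 0 of 9 members, also at an unadjusted p under 0.05, edgeR called 0 and DESeq2 called 1, and 8.26% of all genes were called by limma-voom (5.08% rose, 3.18% fell). From P1 to P8 it called 2 of 9, both as rises, where 7.44% of all genes were called (4.29% rose, 3.15% fell). From P8 to P14 it called 0 of 9 (3 at an unadjusted p under 0.05, 0 by edgeR, 0 by DESeq2), where 0.536% of all genes were called (0.251% rose, 0.285% fell). From P14 to P30 it called 0 of 9 (3 at an unadjusted p under 0.05, 0 by edgeR, 0 by DESeq2), where 0.0596% of all genes were called (0.0331% rose, 0.0265% fell).

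P2rx3 encodes the P2X3 subunit of sensory neurons. Its RPKM was 106.8, 76.5 and 120.4 in replicates 1, 2 and 3 at E15.5, 70.5, 93.1 and 75.6 at P1, and 35.1, 36.3 and 34.2 at P8. It was 9.26, 2.45 and 11.6 at P14 and 32.7, 1.67 and 1.12 at P30. The libraries at P8 were all below those at P1 and all above those at P14, and 1 library at P30 stood near the P8 level. From E15.5 to P30 P2rx3 fell by 4.26 ± 0.74 (SE) on the log2 scale (limma-voom adjusted p = 0.00028). The log2 change was -6.22 without P30 replicate 1, -3.62 without P30 replicate 2 and -3.36 without P30 replicate 3, each called. The single steps were not called: the log2 difference was -1.16 ± 0.40 from P1 to P8 (limma-voom adjusted p = 0.0745) and -2.45 ± 0.67 from P8 to P14 (limma-voom adjusted p = 0.102). With a fit to the libraries compared alone, or with sample quality weights, both steps passed, at limma-voom adjusted p = 0.0012 and 0.0197 for the first and 0.030 and 0.0424 for the second.

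The spread of P2rx3 at P14 and P30 went with that of Prph, which encodes peripherin and marks Type II SGNs, the minority that contacts outer HCs. Prph was 38.7, 0.802 and 22.4 RPKM in the 3 libraries at P14 and 91.3, 1.82 and 0.347 at P30. In both groups the library or libraries with high Prph were those with high P2rx3. Th, another gene of Type II SGNs, ran the other way at P14, with 5.98, 12.5 and 7.12 RPKM, the highest value standing in the library with the lowest P2rx3. At P30 Th was 3.83, 0.371 and 0.615, highest in the library with the highest P2rx3. Gata3, also a gene of Type II SGNs, was 13.7, 8.75 and 9.12 at P14, lowest in the library with the lowest P2rx3. At P30 Gata3 was 9.23, 5.48 and 4.35, highest in the library with the highest P2rx3. The libraries with high P2rx3 were also those with a high sum over the supporting-cell genes, which was 18.7, 0.694 and 9.69 at P14 and 10.8, 0.551 and 0.515 at P30. At E15.5, by contrast, replicate 2 had 190.7 RPKM of Prph and the lowest P2rx3 of its age. The sum over the Type II list (Prph, Th, Gata3) was 22.1 to 58.4 at P14, 5.31 to 104.4 at P30 and 70.0 to 246 at E15.5, and all 3 genes were detected at each SGN age. The part of either cell type in the P2rx3 result was not tested.

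Asic3 encodes the ASIC subunit typical of peripheral sensory neurons. Its RPKM was 25.3, 42.1 and 28.1 at E15.5, 41.3, 52.1 and 54.9 at P1, and 74.8, 101.9 and 105.2 at P8. It was 122.4, 176.1 and 94.1 at P14 and 75.8, 115.8 and 65.8 at P30. Every library from P8 on was above every library at E15.5 and P1. Asic3 rose from E15.5 to P30 by 1.35 ± 0.29 on the log2 scale (limma-voom adjusted p = 0.00165). With no scaling beyond library size the change was 0.86 and below 2-fold, and the median of all genes then moved by -0.488 in that comparison. From P1 to P8 its log2 difference of 0.93 ± 0.25 had a limma-voom adjusted p of 0.0238 but did not reach 2-fold.

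P2rx6 encodes a P2X subunit that forms few working channels on its own and joins P2X2 or P2X4. Its RPKM was 1.94, 0.545 and 0.121 at E15.5, 0.379, 2.45 and 0.669 at P1, and 6.01, 3.33 and 6.997 at P8. It was 11.1, 17.5 and 11.3 at P14 and 7.71, 10.5 and 7.68 at P30. The highest value at P1 was below the lowest at P8, and the highest at P30 was below the lowest at P14. P2rx6 rose from E15.5 to P30 by 4.12 ± 0.84 on the log2 scale (limma-voom adjusted p = 0.00107), with 3.10 to 4.95 when any 1 library of the 2 ages was left out. The low value was without E15.5 replicate 3 and the high one without E15.5 replicate 1. It rose from P1 to P8 by 2.68 ± 0.66 (limma-voom adjusted p = 0.0142). That call was lost with edgeR (adjusted p = 0.102), without P1 replicate 1 (log2 change 1.97, limma-voom adjusted p = 0.115) and without P1 replicate 3 (2.57, limma-voom adjusted p = 0.0501). Without P1 replicate 2 the change was 3.40. From P8 to P14 the log2 difference of 1.35 ± 0.37 was not called (limma-voom adjusted p = 0.104). Slc7a4, which shares exon bases with it, had means of 2.55 ± 3.20, 3.73 ± 0.968, 4.46 ± 1.44, 2.84 ± 0.418 and 3.62 ± 0.49 RPKM at the 5 ages in order. Its means thus differed in the same direction as P2rx6 from P1 to P8 and from E15.5 to P30, with overlapping ranges, and its part in the P2rx6 result was not tested.

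P2rx7 encodes a P2X receptor that opens only at high ATP. In SGNs its RPKM was 0.145, 0.324 and 0.761 at E15.5, 0.435, 0.206 and 0.185 at P1, and 3.88, 1.86 and 2.51 at P8. It was 1.82, 0.832 and 0.568 at P14 and 0.523, 0.257 and 0.018 at P30. The P8 libraries were above every other SGN library, but narrowly, with 1.86 in P8 replicate 2 and 1.82 in P14 replicate 1. In TPM (levels scaled to 1 sum per library) this did not hold, with 2.45 in P8 replicate 3 and 3.95 in P14 replicate 1. P2rx7 rose from P1 to P8 by 3.30 ± 0.77 on the log2 scale (limma-voom adjusted p = 0.0107), and the call held under each alternative and left-out library. Afterwards the log2 difference was -1.39 ± 0.59 from P8 to P14 (limma-voom adjusted p = 0.364) and -2.68 ± 1.03 from P14 to P30 (limma-voom adjusted p = 0.599), neither called.

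Transcripts of myelinating glia moved with P2rx7 across SGN ages. The sum over 4 Schwann cell myelin genes (Mbp, Pmp22, Prx, Mag) was 20.4 to 47.3 RPKM at E15.5, 14.4 to 62.3 at P1, 239.8 to 529.8 at P8, 44.2 to 242 at P14 and 5.44 to 126.4 at P30, against 1470 to 2208 in glia. As a share of the glial mean, it was 20.6% at P8, 7.91% at P14 and 2.79% at P30. P2rx7 was 7.16%, 2.79% and 0.693% of its glial mean at these ages. At E15.5 and P1 the myelin sum was 1.96% and 1.80% of its glial mean, and P2rx7 was 1.07% and 0.716%. Both measures were highest at P8. The order of the 3 libraries was the same in both at P8, P14 and P30, but not at E15.5 or P1. The sum over 4 glial genes (Sox10, Foxd3, Erbb3, S100b) did not follow this course, with 33.5% of the glial mean at P8 and 55.8% at P30. All 4 genes of each list were above 3 counts in some library of every group. Their part in the P2rx7 result was not tested.

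P2rx4, a P2X receptor found in many cell types and partly inside lysosomes, rose from E15.5 to P30 by 1.86 ± 0.69 on the log2 scale (limma-voom adjusted p = 0.0407). Its RPKM was 0.18, 1.34 and 1.14 at E15.5 and 2.96, 2.24 and 2.80 at P30, and the ages between them lay at 1.35 to 4.27. The call was the least steady of the 4: it was lost in 3 of 9 alternatives and in 5 of 6 fits that left out 1 library, and without E15.5 replicate 1 the change was 1.08 (limma-voom adjusted p = 0.149).

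P2rx5 was sparse. Its RPKM was 3.40, 0.101 and 0.0404 at E15.5, at most 0.0827 at P1 and P8 (0 to 5 counts), 0.0536, 0 and 0.515 at P14, and 2.60, 0.802 and 0.765 at P30. The 3 libraries at P30 were above every library at P1, P8 and P14. The F-test over ages called P2rx5 (limma-voom adjusted p = 0.0242), but the call was lost with sample quality weights, without P8 replicate 2 and without P30 replicate 1, and DESeq2 gave no adjusted p for it. From E15.5 to P30 its log2 difference was 2.42 ± 1.22 (limma-voom adjusted p = 0.121), and 4.07 without E15.5 replicate 1 (limma-voom adjusted p = 0.0353), which was called. Over P14 to P30 its log2 difference of 4.19 ± 1.51 had a limma-voom adjusted p of 0.536. The library at E15.5 with 3.40 RPKM was also the one with the highest sum over 3 red blood cell genes (Hbb-bs, Hbb-bt, Alas2), 100.6 RPKM against 0.765 and 1.77 in the other libraries of that age. P1 replicate 1 and P8 replicate 1 had sums of 13.9 and 17.7 with P2rx5 at 0.0239 and 0.0257. At P30, replicate 1 had the highest blood sum of its age, 11.1 against 1.07 and 0.157, and the highest P2rx5, 2.60 against 0.802 and 0.765. That library also had the highest sums of its age over the supporting-cell genes (10.8 against 0.551 and 0.515) and the myelin genes (126.4 against 22.1 and 5.44). Its sums over the glial and HC markers were the lowest of its age. The part of blood or other cells in these values was not tested.

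With limma-voom and all libraries, P2rx2, Asic1 and Asic2 were not called in any pair of ages compared or by the F-test (adjusted p = 0.832, 0.0843 and 0.126). Across ages DESeq2 did call Asic1 (adjusted p = 0.0405) and Asic2 (adjusted p = 0.0119). In limma-voom Asic1 was called with library size alone (adjusted p = 0.000962), without E15.5 replicate 2 (adjusted p = 0.0326) and without P1 replicate 3 (adjusted p = 0.0349). Asic2 was called with the replicate number as a block (limma-voom adjusted p = 0.0178) and without E15.5 replicate 2 (limma-voom adjusted p = 0.0201). P2rx2, the partner of P2X3, had 0.809 to 2.59 RPKM at E15.5, 1.02 to 1.60 at P1, 0.658 to 4.70 at P8, 0.166 to 2.75 at P14 and 0.0853 to 5.42 at P30. At the later ages 1 or 2 libraries were high: 4.70 in P8 replicate 1, 2.75 and 1.77 in P14 replicates 1 and 3, and 5.42 in P30 replicate 1, against 0.0853 to 0.927 in the rest. In the same 4 libraries the sum over the supporting-cell genes was 20.02, 18.7, 9.69 and 10.8 RPKM, and in the rest of P8 to P30 it was 0.285 to 0.694. The part of supporting cells was not tested.

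Asic1, the most proton-sensitive ASIC subunit of the brain, was the steadiest member in SGNs, at 61.8 to 85.1 RPKM at E15.5 and 51.8 to 58.1 at P30. Its log2 difference over that time was -0.44 (95% interval -0.78 to -0.09, limma-voom adjusted p = 0.041), so a change of more than 2-fold lay outside the interval. Asic2, which tunes the channels it joins, was 8.41, 0.806 and 3.77 RPKM at E15.5, 0.806 to 1.29 at P1 and 6.74, 2.16 and 6.19 at P30. The spread at E15.5 covered the whole later range. Its difference from E15.5 to P1 was called by DESeq2 (log2 -2.05, adjusted p = 0.0104) and, in limma-voom, without E15.5 replicate 2 (-2.30, adjusted p = 0.0245), while with all libraries it was -1.30 ± 0.79 (limma-voom adjusted p = 0.297). Asic4, which gives no proton-gated current on its own, stayed between 0.0157 and 2.13 RPKM (1 to 120 counts) in SGNs and was not tested between ages.

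**Figure D3:**
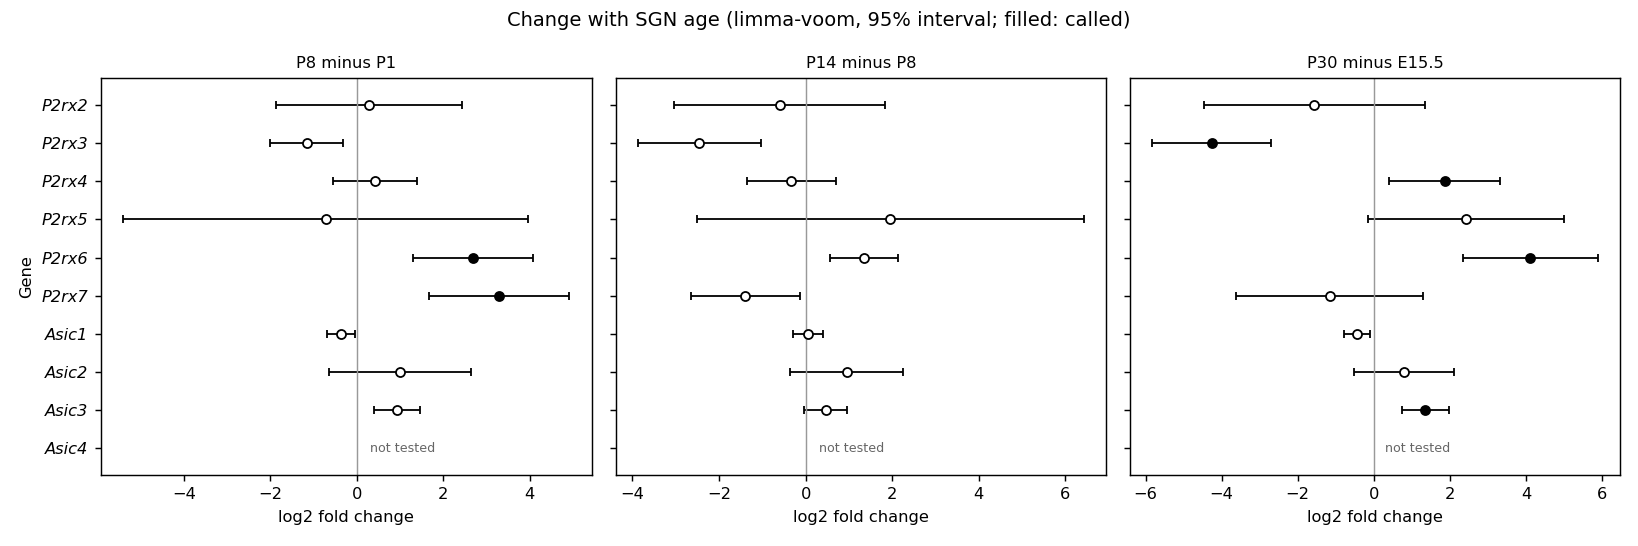
Log2 fold change (x axis) of each gene (y axis) for P8 minus P1, P14 minus P8 and P30 minus E15.5, from limma-voom, with 95% intervals; filled points were called. P2rx6 (2.68) and P2rx7 (3.30) are filled in the first panel, none in the second, and P2rx3 (-4.26), P2rx4 (1.86), P2rx6 (4.12) and Asic3 (1.35) in the third.

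The second question was which members set SGNs apart from HCs and glia. Between cell types a gene was called at a limma-voom adjusted p under 0.01 and a difference over 4-fold, among 17531 genes in a fit of all 21 libraries, and all 10 members were tested. The comparisons share libraries and are not independent. Against HCs, the mean of the 5 SGN ages differed in 4 of 10 members (2 higher, 2 lower), where 26.8% of all genes were called (10.5% higher, 16.2% lower). Against glia it differed in 7 of 10 (6 higher, 1 lower), where 24.7% of all genes were called (14.3% higher, 10.4% lower). The members' median log2 difference was -0.05 against HCs and 3.53 against glia, beside 0.02 and 0.22 over all genes. At P8, the age of the glia, SGNs differed in 6 of 10 (5 higher, 1 lower), where 20.9% of all genes were called (13.4% higher, 7.53% lower). At P14, the age nearest to that of the HCs, they differed in 2 of 10 (1 higher, 1 lower), where 23.1% of all genes were called (10.9% higher, 12.2% lower). HCs differed from glia in 5 of 10 (4 higher, 1 lower), where 24.4% of all genes were called (16.2% higher, 8.18% lower). With sample quality weights the count against glia was 3 for the SGN mean, 3 for P8 SGNs and 2 for HCs.

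Asic3 was higher in SGNs than in either of the other cell types. It had 1.19, 0.954 and 1.77 RPKM in HCs and 6.34, 0.932 and 0.477 in glia, against 25.3 or more in every SGN library. The log2 difference of the SGN mean was 5.73 ± 0.75 against HCs (limma-voom adjusted p = 1.52e-06) and 5.35 ± 0.81 against glia (limma-voom adjusted p = 1.6e-05). At P14 against HCs it was 6.63 ± 0.76 (limma-voom adjusted p = 6.67e-07) and at P8 against glia 5.78 ± 0.82 (limma-voom adjusted p = 1.35e-05). These calls held in every alternative and with any library left out. Without glia replicate 1, the glial library with the highest SGN-marker sum, the SGN mean difference was 6.64, and without glia replicate 3 it was 4.59. At P8 these values were 7.07 and 5.02.

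P2rx3 had 0.402, 1.01 and 0.101 RPKM in HCs and 4.82, 0 and 4.14 in glia. All SGN libraries were above those of the HCs, but at P14 and P30 3 of 6 SGN libraries were below 2 of the glial ones. The SGN mean was higher by 6.13 ± 1.53 on the log2 scale against HCs (limma-voom adjusted p = 0.00203) and by 5.00 ± 1.48 against glia (limma-voom adjusted p = 0.00824). The first call was lost without HC replicate 1 (6.26) or HC replicate 3 (5.21), at limma-voom adjusted p = 0.0109 and 0.018, and without HC replicate 2 the difference was 6.92. The call against glia was lost in 4 of 8 alternatives and in 7 of 18 fits without 1 library, and the difference was 6.65, 2.45 and 6.26 without glia replicate 1, 2 and 3. P8 SGNs were higher than glia by 5.52 ± 1.504 (limma-voom adjusted p = 0.00555), a call lost in 5 of 8 alternatives and without any of the 3 glial libraries, where the difference was 7.16, 2.96 and 6.77. At P14 the log2 difference from HCs was 4.19 ± 1.67 (limma-voom adjusted p = 0.0461), which did not pass, though it did with DESeq2, with sample quality weights and with the libraries compared alone (adjusted p = 0.00834, 0.00547 and 0.00805).

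P2rx7 was highest in glia. It had 30.5, 53.9 and 30.8 RPKM there and at most 0.544 in HCs. The log2 difference from glia was -6.13 ± 0.39 in the SGN mean (limma-voom adjusted p = 7.11e-11), -3.78 ± 0.44 in P8 SGNs (limma-voom adjusted p = 1.28e-06) and -9.14 ± 1.06 in HCs (limma-voom adjusted p = 9.93e-07). Each of these calls held in every alternative and without any library. In HCs it was 0.544 RPKM in replicate 1 and 0.0287 and 0.0134 in the others, and the myelin sum was 19.3, 2.29 and 1.43 in the same order. Without HC replicate 1 the log2 difference between HCs and glia was -10.63, and without HC replicate 3 it was -8.20. The SGN mean and the HCs differed by 3.01 ± 1.09 (limma-voom adjusted p = 0.0246), which did not pass, and by 4.51 without HC replicate 1 (limma-voom adjusted p = 0.00617), which did. The summed RPKM of 7 macrophage and microglia genes (Aif1, Csf1r, Cx3cr1, C1qa, C1qb, Ptprc, Tyrobp), cells that also express P2rx7, was 0.197 to 1.73 in glia, with 5 of the 7 at or under 3 counts in every glial library.

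P2rx2 was highest in HCs. It had 11.4, 10.1 and 10.4 RPKM there, 1.36 to 1.96 in glia and 0.0853 to 5.42 in SGNs. No SGN or glial library reached the HC range. The log2 difference of the SGN mean from HCs was -3.33 ± 0.51 (limma-voom adjusted p = 1.32e-05), called in every alternative and without any library. At P14 the difference was -3.44 ± 0.92 (limma-voom adjusted p = 0.00435), and it was not called with edgeR (adjusted p = 0.0767), with DESeq2 (adjusted p = 0.0149), without P14 replicate 2 (-2.27) or without P14 replicate 3 (-3.88). Without P14 replicate 1 it was -4.33 and called. HCs exceeded glia by 2.68 ± 0.88 (limma-voom adjusted p = 0.0169), which did not pass. The supporting-cell sum in the HC libraries was 203 to 210, against at most 20.02 in SGNs and 80.8 in glia, and its part in the HC level of P2rx2 was not tested. The glial library with 80.8 had 1.96 RPKM of P2rx2.

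P2rx6, Asic1 and Asic2 were higher in both the SGN mean and HCs than in glia. At E15.5, however, P2rx6 in SGNs (0.121 to 1.94 RPKM) overlapped the glial range. P2rx6 had 3.92, 5.57 and 3.86 RPKM in HCs and 0.348, 0.152 and 0.0964 in glia, and differed by 3.96 ± 0.90 (SGN mean, limma-voom adjusted p = 0.00101) and 4.55 ± 0.94 (HCs, limma-voom adjusted p = 0.000581) on the log2 scale. P8 SGNs differed from glia by 4.76 ± 0.92 (limma-voom adjusted p = 0.000325). The call for the SGN mean was lost without glia replicate 3 (3.59) and all 3 calls were lost with sample quality weights. The SGN mean and the HCs did not differ in P2rx6 beyond the spread (log2 -0.59, 95% interval -1.44 to 0.26), but the P14 SGNs were above HCs by 1.55 ± 0.43, short of 4-fold. That mean joins ages on both sides of the HCs. SGN libraries at E15.5 and P1 had at most 2.45 RPKM, below every HC library, and those at P14 and P30 at least 7.68, above every HC library. Slc7a4, which shares exon bases with P2rx6, had a mean of 8.49 RPKM in HCs, 3.44 over the SGN libraries and 0.591 in glia. Its part in the differences of P2rx6 from glia was not tested.

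Asic1 had 40.5, 47.0 and 47.0 RPKM in HCs and 15.6, 8.88 and 1.82 in glia. The glial library with the highest Asic1 was also the one with the highest SGN-marker sum, and the part of SGN RNA in it was not tested. Asic1 was higher by 3.10 ± 0.40 on the log2 scale in the SGN mean (limma-voom adjusted p = 2.32e-06), by 2.96 ± 0.42 in P8 SGNs (limma-voom adjusted p = 1.38e-05) and by 2.61 ± 0.43 in HCs (limma-voom adjusted p = 6.3e-05). Without glia replicate 1 these were 3.94, 3.80 and 3.45, and without glia replicate 3 they were 2.37, 2.23 and 1.87, the last below 4-fold. Between the SGN mean and the HCs the difference was 0.49 (95% interval 0.10 to 0.88). In TPM, where the levels of all genes are scaled to 1 sum per library, the direction turned, with Asic1 at 162.4 in HCs and 142.4 at P1, its highest SGN age.

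Asic2 had 1.41, 0.924 and 2.68 RPKM in HCs and 0.0967, 0.0407 and 0.0451 in glia (2 to 8 counts). It was higher by 5.30 ± 1.07 on the log2 scale in the SGN mean (limma-voom adjusted p = 0.000348), by 5.03 ± 1.14 in P8 SGNs (limma-voom adjusted p = 0.00132) and by 4.52 ± 1.19 in HCs (limma-voom adjusted p = 0.00415). The call for HCs was lost without HC replicate 3 or any 1 of the glial libraries, the call for P8 SGNs without glia replicate 2 or 3, and all 3 with sample quality weights.

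Asic4 had 0 counts in the 3 glial libraries and 24 to 43 counts, 0.392 to 0.632 RPKM, in HCs. Set against a floor of 3 counts per glial library, the HC mean was 5.98-fold and the SGN mean 4.92-fold that floor. The floor takes counts as independent and would be larger if 1 read of a pair gave 1 count, so these are not lower bounds. Over the 15 SGN libraries the mean was 0.423 RPKM, the median 0.176 and the highest value 2.13. At P8, the age of the glia, SGNs had 0.148 ± 0.0649 RPKM beside that floor of 0.086, and their difference from glia was not called (limma-voom adjusted p = 0.0362). The comparisons of HCs and of the SGN mean passed (limma-voom adjusted p = 0.00138 for HCs and 0.00194 for the SGN mean), the second call was lost without any 1 of the glial libraries, and both with sample quality weights.

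Of P2rx4 and P2rx5, the second was called in 1 comparison and the first in none. P2rx4 had 3.23, 8.19 and 6.47 RPKM in glia, 2.78, 3.00 and 2.85 in HCs and 0.18 to 4.27 in SGNs. The log2 difference of the SGN mean from glia was -1.51 ± 0.37 (limma-voom adjusted p = 0.00218), which is under 4-fold. P2rx5, a subunit with weak currents of its own, had 1.38, 1.84 and 0.335 RPKM in HCs and 0.624, 1.56 and 0.0804 in glia. The log2 difference of the SGN mean from HCs was -3.18 ± 0.97 (limma-voom adjusted p = 0.00916), but SGNs at E15.5, P14 and P30 overlapped the HC range. The call was lost in 3 of 8 alternatives and in 12 of 18 fits without 1 library, with -2.64 without HC replicate 2 and -3.96 without HC replicate 3. In P8 SGNs the log2 difference from glia was -4.75 ± 1.62 (limma-voom adjusted p = 0.0219), which did not pass. It was called with DESeq2 (log2 -5.84, adjusted p = 0.00272) and without glia replicate 3 (-5.71, limma-voom adjusted p = 0.0091).

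**Figure D4:**
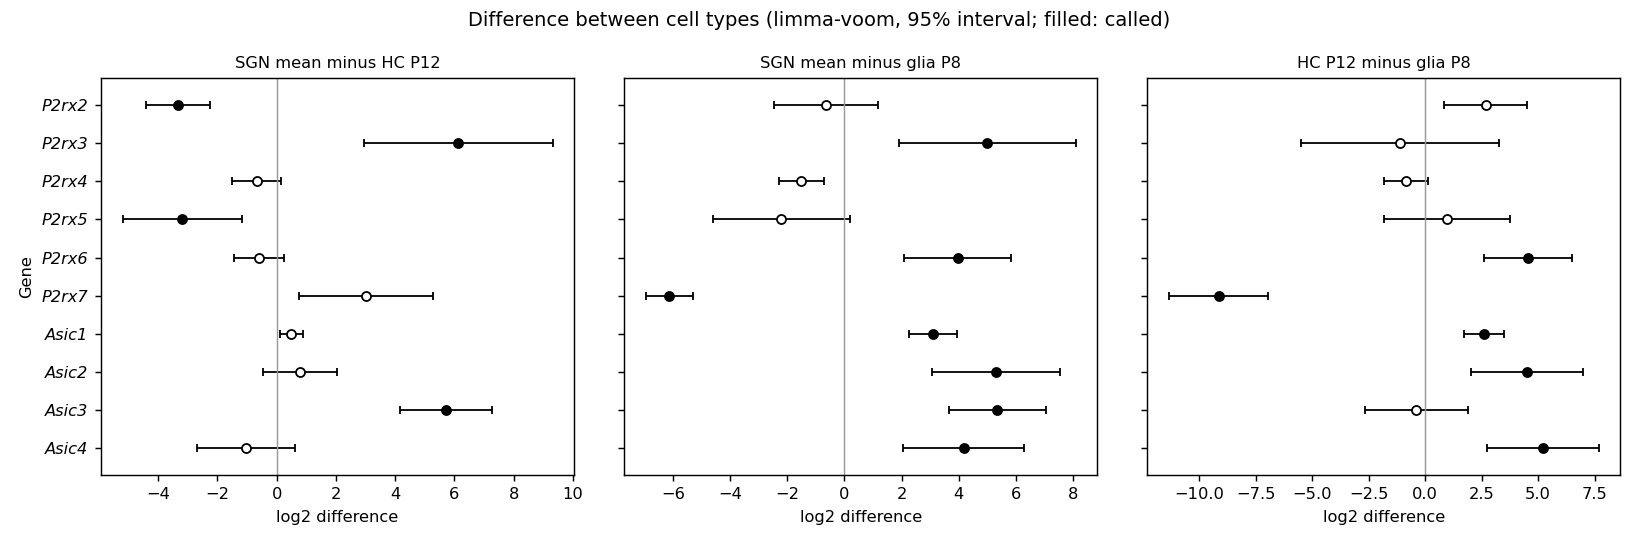
Log2 difference (x axis) of each gene (y axis) for the mean of 5 SGN ages minus HC P12, the same mean minus glia P8, and HC P12 minus glia P8, from limma-voom, with 95% intervals; filled points were called. Asic3 is at 5.73 and 5.35 in the first 2 panels, and P2rx7 at -6.13 and -9.14 in the last 2.

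In order of the 7 group means, most neighbours overlapped. All 6 neighbouring pairs overlapped in P2rx5, 5 of 6 in P2rx2, P2rx4, Asic2 and Asic4, 4 of 6 in P2rx3, P2rx7, Asic1 and Asic3 and 3 of 6 in P2rx6. This count was not made over all genes, so it does not tell whether the members stand out. The pairs without overlap included, for P2rx7, glia (38.4 ± 13.4) and P8 SGNs (2.75 ± 1.03), and for P2rx2, HCs (10.6 ± 0.654) and P8 SGNs (2.09 ± 2.26). They also included, for Asic3, E15.5 SGNs (31.8 ± 9.003) and glia (2.58 ± 3.26), and for P2rx3, P1 (79.7 ± 11.9) and P8 (35.2 ± 1.09). Other pairs without overlap are not listed.

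**Figure D5:**
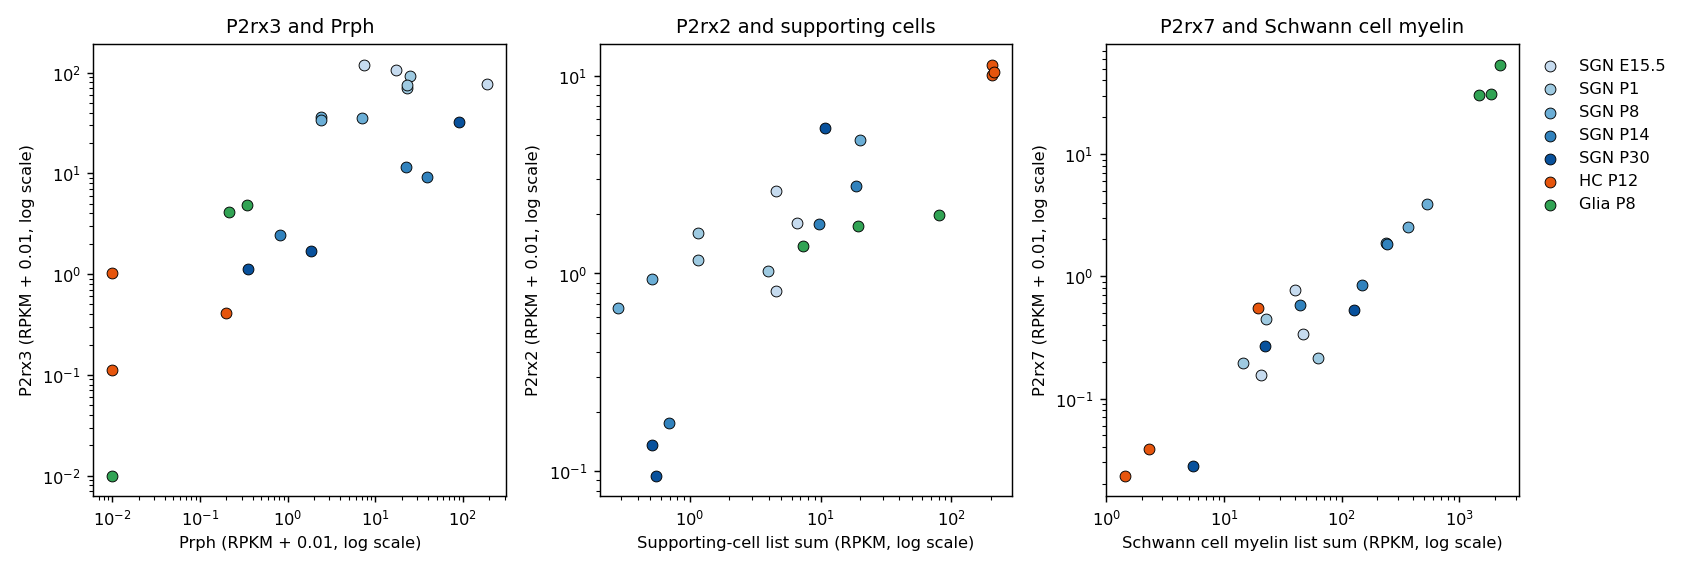
Levels in the 21 libraries on log axes: P2rx3 against Prph (both RPKM + 0.01), P2rx2 (RPKM + 0.01) against the summed RPKM of 4 supporting-cell genes, and P2rx7 (RPKM + 0.01) against the summed RPKM of 4 Schwann cell myelin genes, with 1 point per library coloured by group. At P30 the library with 91.3 RPKM of Prph has 32.7 of P2rx3, and at P8 the libraries have 239.8 to 529.8 of myelin and 1.86 to 3.88 of P2rx7.

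Other genes of ATP and proton signalling were taken as 42 genes in 7 lists. Of these, 19 passed the filter in SGNs and 25 over all libraries. P2rx1 and Asic5 were among the untested, with at most 0.916 and 0.0267 RPKM in any library. From E15.5 to P30 limma-voom called 6 of 19 (5 rose, 1 fell), where 34.6% of all genes were called, and the median log2 change of the 19 was -0.40. Against the HCs the SGN mean differed in 10 of 25 (4 higher, 6 lower), where 26.8% of all genes were called (10.5% higher, 16.2% lower). Against glia it differed in 13 of 25 (5 higher, 8 lower), where 24.7% were called (14.3% higher, 10.4% lower).

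Among these genes 4 rose with age and were higher in SGNs than in glia. Panx2, a pannexin of neurons, rose from 2.42 ± 1.11 RPKM at E15.5 to 42.4 ± 7.06 at P30 (log2 change 4.27 ± 0.42, limma-voom adjusted p = 8.85e-07). Entpd3, an enzyme that breaks down extracellular ATP, rose from 0.374 ± 0.288 to 13.4 ± 2.41 (5.39 ± 0.66, limma-voom adjusted p = 9.71e-06). Adora1, the A1 adenosine receptor, rose from 0.15 ± 0.197 to 3.66 ± 0.805 (5.49 ± 1.28, limma-voom adjusted p = 0.00279), and Slc29a2, a nucleoside transporter, from 1.32 ± 0.666 to 8.32 ± 2.08 (2.62 ± 0.62, limma-voom adjusted p = 0.00309). Panx1, which forms ATP-permeable channels, fell by 1.42 ± 0.33 on the log2 scale (limma-voom adjusted p = 0.00257). Of the P2Y receptors, G protein-coupled receptors for nucleotides, none of 3 tested changed with age by limma-voom. In the SGN mean 3 of 4 were lower than in glia. The log2 differences were -5.38 ± 0.82 for P2ry12, -4.41 ± 1.07 for P2ry1 and -4.25 ± 0.69 for P2ry2. For P2ry1 the libraries at E15.5, P1 and P8 were all below the glial range of 2.47 to 9.47 RPKM. At P14 its median of 4.50 lay inside that range, with a lowest value of 0.299. At P30 its mean was 5.44 ± 9.17, with a median of 0.264, beside a mean of 5.37 ± 3.65 in glia. Among genes whose products bind or tune ASICs, Stoml1 was higher in the SGN mean than in HCs (2.35 ± 0.48, limma-voom adjusted p = 0.000306) and glia (2.30 ± 0.53, limma-voom adjusted p = 0.00118). Stom, which encodes stomatin, was lower in the SGN mean than in HCs (log2 difference -6.90 ± 0.76, limma-voom adjusted p = 1.47e-07). Gpr4, a proton-sensing receptor, was lower too (-4.17 ± 0.52, limma-voom adjusted p = 7.45e-07).

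For the pair of members with the highest group means in each family, the genes with the most similar pattern were found by Pearson's r of log2(TPM + 1) over the 21 libraries, which share group structure and depth, so r describes the pattern only. TPM is the count per length scaled to a fixed sum per library. For P2rx3 they were Tmsb10 (r = 0.941), Gm9844 (0.941) and Tmeff1 (0.937), whose mean RPKM at E15.5, P8 and P30 was 209.5, 75.8 and 15.7 for Tmsb10. For P2rx7 they were Dmd (0.972), Abca8a (0.972) and Gjc3 (0.968), with 43.4, 64.3 and 432 RPKM in glia. For Asic3 they were Stmn3 (0.981), Ttbk1 (0.974) and Cacnb4 (0.974), and for Asic1 Rims2 (0.9747), Atp8a2 (0.973) and Tmem178b (0.966). With RPKM in place of TPM the same 3 genes came first for Asic1, 2 of the 3 for P2rx7 and 1 of the 3 each for P2rx3 and Asic3.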

How the data were processed

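SGNs, HCs and glia were profiled by bulk RNA-Seq after amplification (Ovation RNA-Seq V2). According to the methods, the authors mapped reads to mm10 with STAR 2.4.0i and counted them with featureCounts on GENCODE vM15. The deposited values are raw counts per gene with a gene length. Strand and pair settings are not given in the sources used here. Among counts of 1 to 20 a median of 67.9% per library were even, so a count may stand for 1 read of a pair.

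Members, lists and tests were chosen with earlier results of these data known. Named genes were all members, list genes that were called and the 3 genes most like 2 members of each family. Genes with more than 1 CPM in all replicates of a group were tested with limma 3.58.1 (voom) on TMM factors from edgeR 4.0.16, two-sided, with 15 SGN libraries for ages and 21 for cell types. RPKM replaced TPM as the printed level after Gm23935, of 57 bases, was seen to take 8.17% to 68.1% of TPM. Alternatives were edgeR quasi-likelihood, DESeq2 1.42.0, other scalings, no filter, sample quality weights, a replicate block, other sets of libraries and leaving out each library. Scripts were tested on simulated data. Replicate numbers were taken to pair libraries where r between same-numbered libraries was over 0.1 in all 3 replicates. Among the age steps compared, this held only for P14 to P30 (r = 0.397, 0.277 and 0.14). From P1 to P8 r was 0.411, 0.091 and 0.175, and from P8 to P14 it was 0.399, 0.185 and 0.07. In each of these steps r was highest for replicate 1. Nothing in the labels ties same-numbered libraries. Some marker genes and 1 sequence are not reported here, and marker sums were computed without those genes.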

Additional observations from a re-analysis of the deposited data

How the results depend on the processing

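Of 30 member results called between groups or ages, 13 held under every alternative and left-out library, 15 under every alternative, and 0 reversed in direction. Counts of members called moved as follows. DESeq2 called 1 from E15.5 to P1. edgeR called 1 from P1 to P8 and 1 for P14 SGNs against HCs. Library size alone gave 2 from E15.5 to P30. Sample quality weights gave 1 from P8 to P14, 3 for the SGN mean and 3 for P8 SGNs against glia, 4 for P14 SGNs against HCs and 2 for HCs against glia. Fitting only the libraries compared gave 1 from P8 to P14 and 4 for P14 SGNs against HCs. With 1 library left out, the counts ranged from 0 to 1 (E15.5 to P1), 1 to 3 (P1 to P8), 4 to 7 (SGN mean against glia), 1 to 3 (P14 SGNs against HCs) and 3 to 5 (HCs against glia). The last 2 sets of fits also held fewer libraries, and the causes of these moves were not tested. Under the replicate block, 0 members were called from P14 to P30, as without it, and all genes called numbered 23 in place of 9 (146 in place of 81 from P8 to P14). It kept the other counts of members within 1.5 times and added Asic2 in the F-test across SGN ages (adjusted p = 0.0178), P2rx7 for P14 SGNs against HCs (log2 3.97) and P2rx2 for HCs against glia (2.85). Same-numbered HC libraries did not deviate together with those of SGNs or glia. Over all genes and alternatives, calls ranged from 34 to 198 (81 as reported) from P8 to P14, 2 to 110 (9) from P14 to P30, 552 to 1743 (1248) from E15.5 to P1, 649 to 1458 (1124) from P1 to P8, 2017 to 5064 (4326) for the SGN mean, 1942 to 4133 (3662) for P8 SGNs and 2226 to 4901 (4272) for HCs against glia. Highest and second highest group means traded places in TPM for P2rx3, P2rx5, Asic2 and Asic4 (log2 ratio -0.0352, -1.33, -0.54 and -0.72). In all, 6 of 10 members had another highest group in TPM, Asic1 (HCs at 162.4 against 142.4 at P1) and P2rx4 (HCs at 10.4 against 6.73 in glia) included, so that Asic1 was then higher in HCs than at any SGN age.

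Library size alone shifted the median of all genes from -0.01 to -0.488 from E15.5 to P30, where the share of rises among calls went from 53.2% to 29.9%. That share went from 61.5% to 46.7% from E15.5 to P1, from 57.7% to 35.6% from P1 to P8, from 46.9% to 26.0% from P8 to P14 (31.3% with DESeq2), from 39.3% to 26.0% for the SGN mean and from 47.2% to 27.0% for P14 SGNs against HCs, and from 66.4% to 77.8% for HCs against glia. From P14 to P30 it was 55.6%, and 22.7% with DESeq2. Results for P2rx5 and Asic4 rest on few counts in most libraries.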
